A study of Homo sapiens with 22 samples.

Results

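MTBP binding, H3K4me2 and replication initiation zones were examined in 9 protein-coding genes of the human common fragile sites, FHIT, WWOX, IMMP2L, CTNNA3, MACROD2, LRP1B, PTPRG, LSAMP and AUTS2, out of 19970 protein-coding genes annotated by RefSeq on chromosomes 1 to 22 and X. They were chosen by name as fragile site genes, by a rule that uses no measured value, though with earlier results of these data known, and each was taken from its RefSeq start to its end on GRCh38.p14, the assembly that hg38 stands for, with 20 kb added on each side. These spans covered 12.3 Mb and held 49 of the 29848 MTBP peaks, 136 of the 62388 H3K4me2 peaks and 0 of the 2473 replication initiation zones in the deposited lists.

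The series comprised 22 libraries in 8 groups, all from DLD-1, an established human colorectal adenocarcinoma line. MTBP sites were mapped by CUT&RUN, in which an antibody recruits a nuclease that releases the DNA fragments it is bound to, with a FLAG antibody in cells of genotype MTBP-mAID/MTBP-deltaC-FLAG (3 libraries), whose tagged MTBP lacks its C-terminal part, in cells of genotype MTBP-mAID/MTBP-WT-FLAG (3 libraries), whose tagged MTBP is full length, and in untagged MTBP-mAID/MTBP-mAID cells (3 libraries). All of these lines thus carry MTBP fused to mAID, an auxin-inducible degron tag, and whether auxin was added, or whether each line was 1 clone, is not given in the sources used here. CUT&RUN was also done with IgG (2 libraries) and for H3K4me2 (2 libraries), with H3K4me2 measured in the WT-FLAG line only. EdU-seq, the sequencing of DNA labelled with the nucleotide analogue EdU (10 µM for 3 hr), was done in deltaC cells released into S phase, in WT cells released into S phase and in WT cells held in G1 (3 libraries each), and the design text places hydroxyurea and aphidicolin in the labelling of released cells, and describes the labelled sites as early. The deposited lists give 1 deltaC signal and 1 WT signal for each MTBP peak and no value per library, so no spread between replicates could be measured, no difference below was tested, and the depth of the libraries is unknown.

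Common fragile sites are chromosome regions that show gaps and breaks in metaphase when DNA synthesis is partly inhibited. Many of them lie in very long genes that are replicated late and that contain few places where replication starts, so forks must travel far to finish them. MTBP acts with Treslin at licensed origins, where the pair helps to join CDC45 and GINS to the loaded MCM helicase, and H3K4me2 is a histone mark of active promoters and enhancers. FHIT, a hydrolase of diadenosine triphosphate, and WWOX, a WW-domain oxidoreductase, are the classical fragile site genes, and both are frequently deleted in carcinomas.

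The upstream 250 bases of 4 of the genes are shown first, 5′ to 3′ on the gene's strand with CpG dinucleotides in capitals, since whether a start carried H3K4me2 and MTBP separated these genes. FHIT (chr3:61251453-61251702, minus strand) and WWOX (chr16:78099404-78099653, plus strand) had both marks over this window. AUTS2 (chr7:69598225-69598474, plus strand) and LSAMP (chr3:116445488-116445737, minus strand) had neither. Sequences are RefSeq's for GRCh38.p14.
FHIT: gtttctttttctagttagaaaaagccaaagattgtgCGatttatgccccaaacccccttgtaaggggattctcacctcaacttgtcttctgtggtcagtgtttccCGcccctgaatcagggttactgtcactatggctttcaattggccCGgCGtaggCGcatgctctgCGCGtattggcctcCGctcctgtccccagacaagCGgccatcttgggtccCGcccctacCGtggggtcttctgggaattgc
WWOX: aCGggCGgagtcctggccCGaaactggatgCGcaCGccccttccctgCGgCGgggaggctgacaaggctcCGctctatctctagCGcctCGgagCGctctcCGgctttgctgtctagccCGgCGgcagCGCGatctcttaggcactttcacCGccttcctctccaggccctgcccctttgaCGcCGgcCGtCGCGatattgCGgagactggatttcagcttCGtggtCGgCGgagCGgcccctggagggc
AUTS2: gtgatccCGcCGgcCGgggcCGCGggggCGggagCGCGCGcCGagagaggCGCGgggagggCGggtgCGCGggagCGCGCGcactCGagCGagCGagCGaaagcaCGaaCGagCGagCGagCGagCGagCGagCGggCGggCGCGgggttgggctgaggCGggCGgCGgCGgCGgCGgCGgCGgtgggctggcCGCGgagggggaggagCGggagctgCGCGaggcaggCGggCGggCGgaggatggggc
LSAMP: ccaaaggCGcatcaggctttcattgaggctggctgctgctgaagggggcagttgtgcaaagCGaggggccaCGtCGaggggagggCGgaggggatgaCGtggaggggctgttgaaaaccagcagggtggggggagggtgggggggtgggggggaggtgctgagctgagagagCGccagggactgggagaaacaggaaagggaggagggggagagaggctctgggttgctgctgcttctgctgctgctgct

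The AUTS2 window was the richest in CpG among the members and yet carried no peak. It held 49 CpG dinucleotides and 82.8% G and C, against 32 CpG for PTPRG, 29 for MACROD2, 27 for WWOX, 24 for IMMP2L, 11 for FHIT and 7 for LSAMP. Over the 22131 windows of 250 bases upstream of protein-coding genes the median was 16 CpG, with 22 in the windows that an MTBP peak overlapped and 9 in those it did not. Of the 3462 windows with 30 or more CpG, 83.9% overlapped an H3K4me2 peak and 48.7% an MTBP peak, and among windows with 5 to 9 CpG, the class of LSAMP, these shares were 37.0% and 19.9%. The GC box, GGGCGG read on both strands, which contains a CpG itself, occurred 6 times in the AUTS2 window, 6 times in that of IMMP2L, 2 times in those of FHIT and MACROD2, 1 time in those of WWOX and LSAMP and 0 times in that of PTPRG. It was present in 53.7% of all windows, and a match describes the letters only. The table of promoters held a window for 8 of the 9 genes. LRP1B had no entry, and the windows of CTNNA3, with 2 and 0 CpG, lay 67.4 and 97.9 kb inside the gene and carried no peak.

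Of the 8 genes with a window, 5 had an MTBP peak over at least 1 window, against 42.9% of the 15811 protein-coding genes with a window. The same 5 genes, FHIT, WWOX, IMMP2L, MACROD2 and PTPRG, had H3K4me2 there, against 63.7% of those genes. At CTNNA3, which encodes alpha-T-catenin of cell junctions, both marks lay just upstream of the annotated start, MTBP 246 bp and H3K4me2 21 bp from it. The authors' label for this MTBP peak was tRNA-Ser-TCA, which is counted among the repeats below. LRP1B, an endocytic receptor of the LDL receptor family, had its nearest H3K4me2 peak 9148 bp upstream of its start and its nearest MTBP peak 661721 bp downstream of it. LSAMP, an adhesion protein of neurons, and AUTS2, a Polycomb-associated regulator of neuronal development, had no H3K4me2 within 660186 and 133575 bp of their starts, and no MTBP within 660804 and 309130 bp. The starts of the 9 genes thus fell into 6 with both marks within 1 kb and 3 with neither. This count was not made over other genes, so whether 6 of 9 is unusual is not known.

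All 9 spans held at least 1 MTBP peak, against 71.1% of all protein-coding genes and 77.4% of the 314 protein-coding genes of at least 500 kb, a group used below as the comparison, which includes the members but is shorter, with a median length of 1195 kb in the members and 723 kb in the group. Without the flanks the count was 8, since the peak of LSAMP lay beyond the gene's end. The spans differed widely in MTBP density. PTPRG, a receptor-type tyrosine phosphatase, had 9 peaks or 11.6 per Mb, and WWOX had 13 peaks or 11.3 per Mb, which were places 57 and 61 among the 314 long genes counted from the densest. MACROD2, which removes mono-ADP-ribose from proteins, had 10 peaks (4.77 per Mb), IMMP2L, a subunit of the inner mitochondrial membrane peptidase, 4 peaks (4.26 per Mb) and FHIT 6 peaks (3.89 per Mb), all above the long-gene median of 3.43 per Mb. AUTS2 with 3 peaks (2.43 per Mb), LSAMP with 1 (1.46 per Mb), CTNNA3 with 2 (1.06 per Mb) and LRP1B with 1 (0.52 per Mb) lay below it, LRP1B at place 241.

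**Figure D1:**
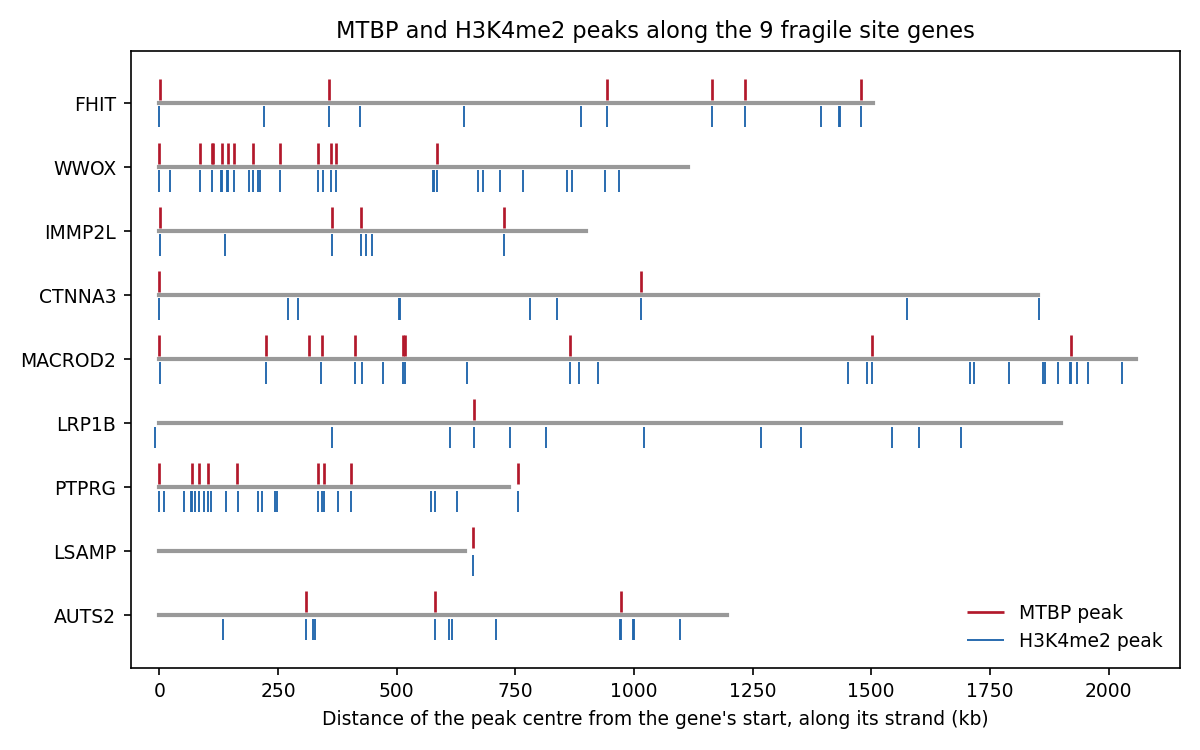
Position of every MTBP peak (red, above each line) and H3K4me2 peak (blue, below) along the 9 genes, as distance in kb from the gene's start along its strand; the grey line is the gene. WWOX and PTPRG carry 13 and 9 MTBP peaks, nearly all on the start side, while LRP1B has 1 and LSAMP has 1 beyond its end.

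Pooled over the spans, there were 4.0 MTBP peaks per Mb in the fragile site genes, against 5.23 in genes of at least 500 kb and 9.85 over chromosomes 1 to 22 and X. Counting error alone, with peaks taken as independent, gives the pooled density of the members a 95% interval (exact Poisson) of 2.96 to 5.28 per Mb, and peaks cluster within genes, so this is too narrow. The median over genes was 3.89 MTBP peaks per Mb in the members, 3.43 in long genes and 16.9 in all protein-coding genes. In MTBP density the fragile site genes lay within the range of the other genes of at least 500 kb, whose median was below that of all protein-coding genes.

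H3K4me2 was found in all 9 spans, against 86.2% of protein-coding genes. As for MTBP, its density was highest in PTPRG with 25 peaks (32.2 per Mb), WWOX with 29 (25.2 per Mb) and MACROD2 with 26 (12.4 per Mb). Below them the order differed from that of MTBP: AUTS2 had 13 (10.5 per Mb), FHIT 13 (8.42 per Mb), IMMP2L 7 (7.45 per Mb), LRP1B 12 (6.19 per Mb), CTNNA3 10 (5.29 per Mb) and LSAMP 1 (1.46 per Mb). Of the members, 6 were below the long-gene median of 11.6 per Mb. The pooled density was 11.1 per Mb in the members, 13.1 in long genes and 20.6 over the genome. LSAMP was the emptiest, with no H3K4me2 or MTBP peak in its whole length of 643 kb. Its single pair of overlapping peaks, MTBP at chr3:115784023-115784683 with a score of 131 and signals of 132 in deltaC and 268 in WT, and H3K4me2 with a fold enrichment of 28.9, lay in the flank beyond its end.

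**Figure D2:**
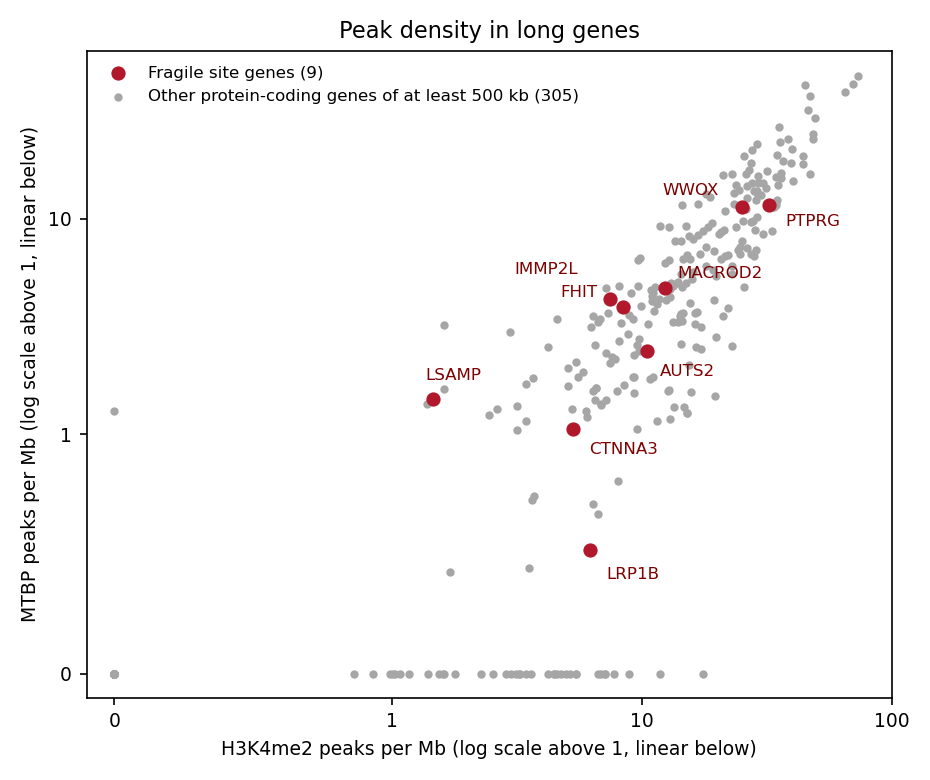
MTBP peaks per Mb against H3K4me2 peaks per Mb in the spans of the 9 fragile site genes (red, named) and of the other 305 protein-coding genes of at least 500 kb (grey). The members spread along the same band as the other long genes, from LRP1B at 0.52 MTBP peaks per Mb to PTPRG at 11.6.

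MTBP peaks sat on H3K4me2 in 48 of 49 cases in these genes, against 98.9% of all MTBP peaks. The exception was chr20:14311169-14311604 in MACROD2, with a deltaC signal of 107 and a WT signal of 166. Read the other way, 47 of the 136 H3K4me2 peaks carried MTBP (34.6%, exact binomial 95% interval 26.6 to 43.2% with peaks taken as independent), against 43.6% of all H3K4me2 peaks and 36.2% of those in long genes. The share differed between genes, so this interval is too narrow. The share per gene was 57.1% in IMMP2L, 46.2% in FHIT, 41.4% in WWOX, 36.0% in PTPRG, 34.6% in MACROD2, 23.1% in AUTS2, 20.0% in CTNNA3 and 8.33% in LRP1B. Pooled over peaks, H3K4me2 in the members was also weaker, with a median fold enrichment of 10.9, against 12.1 in long genes and 14.4 over all peaks. This did not hold in every gene. The median per gene was above 12.1 in LSAMP (28.9, a single peak), IMMP2L (16.3), PTPRG (14.1) and AUTS2 (13.0). It was below 12.1 in FHIT (10.9), WWOX (10.4), CTNNA3 (9.96), MACROD2 (9.56) and LRP1B (9.32). The members' H3K4me2 peaks with MTBP had a median fold of 17.5 and a median width of 2173 bp, and those without it 9.21 and 1036 bp.

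Sorted by the quartiles of fold over the whole list, the members' H3K4me2 peaks carried MTBP in 0 of 33 cases in the lowest quartile, 17 of 56 in the next, 19 of 30 in the third and 11 of 17 in the highest. Over the whole list the shares were 7.60%, 28.2%, 58.6% and 79.9%. In the highest quartile, above the bound of 24.2-fold, 6 peaks of the members had no MTBP. Of these, 3 were in PTPRG, at chr3:61937248-61939917 with a fold of 49.4, the strongest H3K4me2 peak of all 9 genes, at chr3:61668751-61670601 with 40.1 and at chr3:62133678-62135014 with 25.9. MACROD2 had 1 at chr20:14466752-14468262 with a fold of 44.6, and AUTS2 had 2, at chr7:70213242-70215051 with 32.4 and chr7:69919189-69924458 with 24.2. Without AUTS2, one of whose peaks was just past the bound, the highest quartile held MTBP in 11 of 15 cases (73.3%).

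In the pooled count MTBP peaks leaned toward the start of these genes, with most of the peaks on that side in WWOX, MACROD2 and PTPRG. Of the 49 peaks, 36 (73.5%) were centred in the first 50% of the gene or its upstream flank, against 44.4% of the peaks in long genes of known strand. The upstream flank and first 10% of the gene held 18.4% in the members and 14.4% in long genes, and the last 10% with the downstream flank 8.16% and 15.8%. The lean was not only at the start itself, since the second 10% of the gene held 22.4% of the members' peaks and 7.3% of those of long genes. All of these peaks of the members were in WWOX, MACROD2 and PTPRG. WWOX gave 12 of its 13 peaks to the first 50%, MACROD2 8 of 10, PTPRG 7 of 9 and IMMP2L 3 of 4. AUTS2 gave 2 of 3, LRP1B 1 of 1, CTNNA3 1 of 2, FHIT 2 of 6 and LSAMP 0 of 1. Leaving out 1 gene at a time moved the share between 66.7% without WWOX and 79.1% without FHIT. H3K4me2 leaned less, with 57.4% in the members and 46.3% in long genes.

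In WWOX the 13 MTBP peaks lay between 0.059 and 585 kb from the start, and none in the last 528 kb of the gene, although 8 H3K4me2 peaks lay there. All but the start peak stood in introns 5 and 8, as the authors annotated them. The highest score, 459, belonged to chr16:78683894-78685057 in intron 8, with signals of 327 in deltaC and 655 in WT. The start peak, chr16:78099274-78100152, had a score of 421 and signals of 372 in deltaC and 495 in WT. The group thus ended with one of its strongest sites, and beyond it H3K4me2 alone was found.

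In PTPRG, 8 of the 9 MTBP peaks lay within the first 405 kb and the remaining one in the flank 19 kb past the end. Its peak at chr3:61894777-61896306 had the highest score and the highest signals of all 49, a score of 645 with 697 in deltaC and 1049 in WT. It was annotated by the authors to a DNA transposon of the hAT family and classed as an enhancer. The start peak, chr3:61560707-61562024, had a score of 244 with 371 in deltaC and 444 in WT.

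FHIT and PTPRG start 310 kb apart and are transcribed away from each other, so their start peaks face one another across a gap that held 2 further MTBP peaks and 3 H3K4me2 peaks outside both spans. In FHIT the 6 MTBP peaks were spread over the whole 1504 kb. The start peak, chr3:61249842-61251880, had signals of 619.9 in deltaC and 518 in WT and a score of 160. The others, at 357, 944, 1165, 1234 and 1479 kb from the start, had scores of 54 to 121, with deltaC signals of 53.3 to 156 and WT signals of 158 to 244. The start was thus the strongest MTBP site of FHIT by score and by both signals, and all 6 scores were below the median of 190 of the whole list.

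In MACROD2 the peak at the start, chr20:13994974-13995724, had the highest score of the gene (324, with 226 in deltaC and 429 in WT), and SEL1L2, which begins on the other strand, shared it. A second promoter inside the gene was that of FLRT3, an adhesion protein encoded within MACROD2, whose start carried MTBP at chr20:14336854-14338011 with 279 in deltaC and 448 in WT. The other protein-coding genes that begin inside members, LRRN3 in IMMP2L and LRRTM3 in CTNNA3, both encoding neuronal leucine-rich repeat proteins, had 1 and 2 H3K4me2 peaks and 0 MTBP peaks in their bodies or within 1 kb. MAF, a transcription factor gene that overlaps the far end of WWOX, had 3 MTBP and 3 H3K4me2 peaks in its body or within 1 kb, outside the span of WWOX.

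In IMMP2L, 4 MTBP peaks were found. The peak at chr7:111197943-111198789, 364 kb from the start, had a score of 160, with 274 in deltaC and 375 in WT. The start peak, chr7:111560883-111562816, had a score of 131, with 428 in deltaC and 555 in WT, and the highest score, 201, was at chr7:110834933-110835666, with 177 in deltaC and 314 in WT. One of them, chr7:111137992-111138351, was named for deltaC in the authors' list, as were 877 of all 29848 peaks and 57 of the 1421 in long genes. Of the 49 it was the only one. It had the lowest score (37) and the lowest WT signal of the 49, with signals of 59.1 in deltaC and 55.8 in WT. CTNNA3 had its start peak, chr10:67763840-67765209, with a score of 336, 311 in deltaC and 471 in WT, and 1 other, chr10:66747309-66748111, 1016 kb into the gene, with a score of 201, 98.4 in deltaC and 370.5 in WT. LRP1B had only chr2:141468682-141469295 in intron 3, with a score of 78, 110.3 in deltaC and 169.7 in WT.

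The longest stretch of gene without an MTBP peak was 1237 kb in LRP1B, 1015 kb in CTNNA3, 643 kb in LSAMP, 635 kb in MACROD2, 586 kb in FHIT, 528 kb in WWOX, 391 kb in AUTS2, 362 kb in IMMP2L and 331 kb in PTPRG. The median was 586 kb, against 502 kb in genes of at least 500 kb. As a share of the gene it was 45.0% in the members and 61.9% in long genes, which are shorter. Without H3K4me2 the longest stretch had a median of 277 kb in the members and 291 kb in long genes. LRP1B stood at place 12 and CTNNA3 at place 29 of 314 for the MTBP-free stretch, and the other 7 between places 92 and 220.

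As single sites the members' MTBP peaks were slightly weaker than the rest, with a median score of 170 against 190, a median width of 847 bp against 938 bp, a median deltaC signal of 176 against 201 and a median WT signal of 333 against 371. They were mostly neither promoters nor enhancers in the authors' classes: 38 (77.6%) had the class for all others, against 71.4% in long genes and 47.7% over the list. The promoter class held 7 (14.3%) of the members' peaks, against 15.2% in long genes and 34.7% over the list, and the enhancer class 4 (8.16%), against 13.4% and 17.6%. Of the 49, 32 (65.3%) were annotated to introns, against 54.8% in long genes and 28.0% over the list, and 12 (24.5%) to repeats, against 25.1% and 20.7%.

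At 47 of the 49 sites the signal was lower for MTBP without its C-terminal part than for full-length MTBP, as it was at most MTBP peaks of the list. The deltaC signal was above the WT signal at 4.08% of the members' peaks, 6.40% of those in long genes and 4.52% of all peaks. The median log2 ratio of deltaC to WT, with 1 added to each signal, was -0.85 in the members, -0.86 in long genes and -0.93 over all peaks. Of the 49 peaks, 20 were at least 2-fold lower in deltaC, against 44.9% of all peaks, and 0 were at least 2-fold higher, against 0.419%. The scaling of the signals between the lines is not stated, so their common level has no fixed zero. Per gene, the median log2 ratio was -0.41 in IMMP2L, -0.58 in FHIT, -0.62 in LRP1B, -0.83 in PTPRG, -0.85 in WWOX, -1.02 in LSAMP, -1.09 in MACROD2, -1.25 in CTNNA3 and -8.78 in AUTS2.

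**Figure D3:**
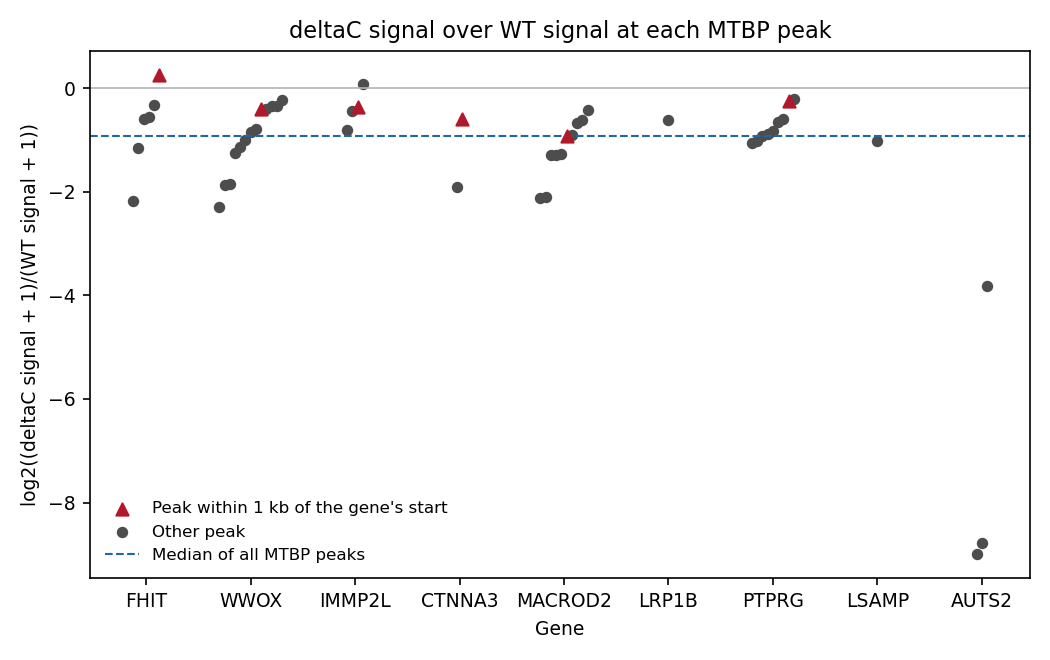
log2 of the deltaC signal over the WT signal, each plus 1, for the 49 MTBP peaks by gene; triangles are peaks within 1 kb of the gene's start, and the dashed line is the median of all peaks, -0.93. The 3 peaks of AUTS2 lie apart from all others, and the 6 start peaks lie on or above the dashed line, that of MACROD2 (-0.92) next to it.

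The 6 peaks within 1 kb of a start had a higher deltaC signal relative to WT, at the median, than the peaks elsewhere in the spans. Their log2 ratios were 0.26 in FHIT, -0.26 in PTPRG, -0.37 in IMMP2L, -0.41 in WWOX, -0.59 in CTNNA3 and -0.92 in MACROD2. Their median was -0.39, with a median deltaC signal of 372 and a median WT signal of 483, against a median of -0.90 for the other 43 peaks, or -0.87 for the 40 of these outside AUTS2, whose range of -2.30 to 0.08 overlapped that of the start peaks. Over the whole list, peaks of the promoter class had a median of -0.97 and those of neither promoter nor enhancer class -0.88; that class is the authors' own, and the start peak of CTNNA3 is not in it. The peaks with the lowest ratios outside AUTS2 were inside WWOX at chr16:78230659-78231393 (-2.30, 62.0 in deltaC and 309 in WT), FHIT at chr3:60017466-60018239 (-2.17, 53.3 in deltaC and 244 in WT) and MACROD2 at chr20:14220053-14220571 (-2.13, 56.9 in deltaC and 252 in WT).

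AUTS2 departed from the other 8 genes. At its 3 MTBP peaks, all in introns or annotated repeats of the gene body, the signal was 30.5 in deltaC and 443 in WT at chr7:69907605-69908640, 0 in deltaC and 438 in WT at chr7:70178643-70179635, and 0 in deltaC and 508 in WT at chr7:70570751-70571859. The deltaC signals were far below, and the WT signals above, the medians of 201 and 371 over all peaks. These were the only peaks of the 9 genes at least 8-fold lower in deltaC, 3 of 49 against 1.99% of all peaks. Among 166 genes of at least 500 kb with 3 or more MTBP peaks, AUTS2 was the only 1 in which every peak was at least 8-fold lower.

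The low deltaC signal was not shared by the neighbouring MTBP peaks on either side. The next peak before AUTS2, chr7:67302079-67303246, had 410.4 in deltaC and 711 in WT, and the next after it, chr7:72326213-72327404 in CALN1, had 533 in deltaC and 857 in WT. These peaks are 5023 kb apart, and the 3 peaks of AUTS2 were the only MTBP peaks between them. The same stretch held 14 H3K4me2 peaks, of which 3 carried MTBP, with folds of up to 32.4, all measured in WT cells. H3K4me2 in deltaC cells and the copy number of the region in either line were not measured here, and their part in the difference was not tested.

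**Figure D4:**
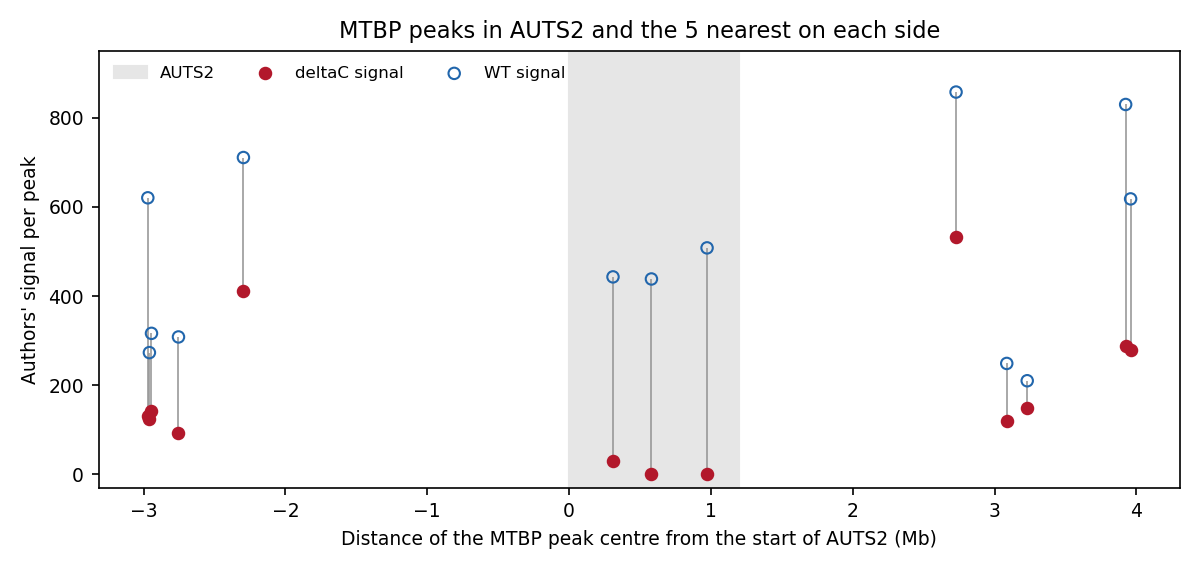
Authors' signal in deltaC (filled) and WT (open) at the 3 MTBP peaks of AUTS2 and the 5 nearest on each side, against distance in Mb from the start of AUTS2; the shaded band is the gene and grey lines join the values of a peak. Inside AUTS2 the deltaC values are 30.5, 0 and 0 with WT values of 443, 438 and 508, and on both sides deltaC is well above 0.

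None of the 9 spans held an initiation zone, against 32.1% of all protein-coding genes and 10.2% of those of at least 500 kb. With no zone there, no MTBP peak inside the spans could lie in one. Of all 29848 MTBP peaks 6860 lay in a zone, and of the 1421 in long genes 124. The distance from the gene to the nearest zone was 9119 kb for LRP1B, 3021 kb for PTPRG, 2685 kb for AUTS2, 2226 kb for LSAMP, 2046 kb for WWOX, 1207 kb for FHIT, 1017 kb for MACROD2, 829 kb for IMMP2L and 313 kb for CTNNA3. The median was 2046 kb, against 1172 kb in genes of at least 500 kb and 160.0 kb in all protein-coding genes. More than 1 Mb separated 7 of the 9 from a zone, against 54.5% of long genes and 24.6% of all, and more than 500 kb separated 8 of the 9, against 69.4% and 34.5%. With the zones being those of early S phase under replication inhibitors, later initiation inside these genes was not measured. Which EdU-seq libraries, deltaC, WT or both, gave the zones is not stated in the sources used here.

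**Figure D5:**
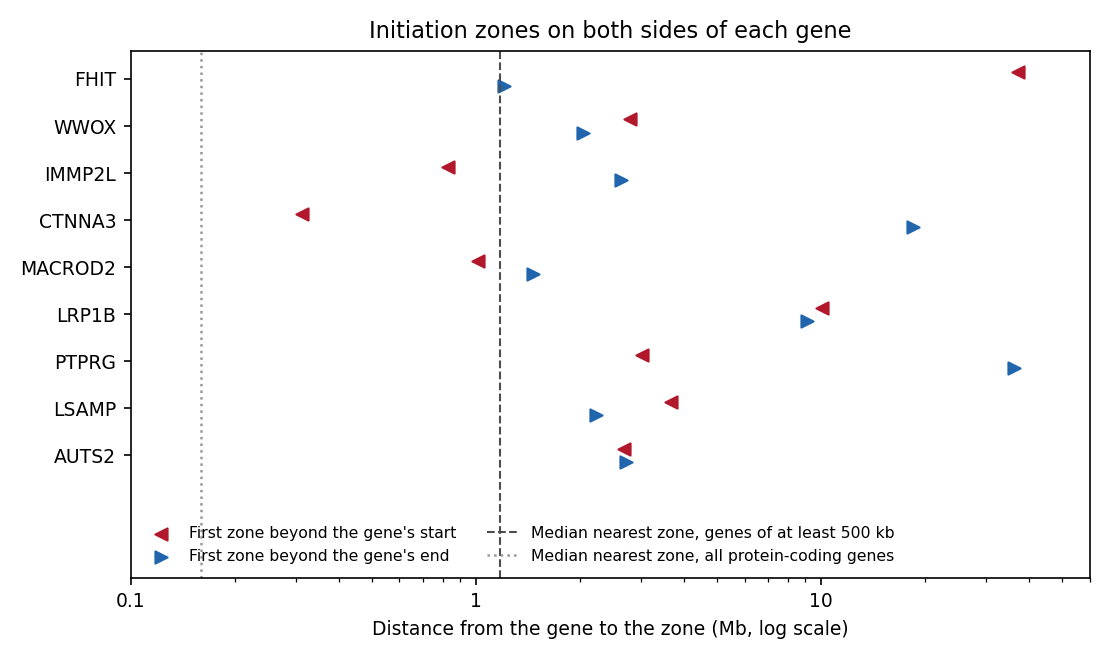
Distance in Mb (log scale) from each of the 9 genes to the first initiation zone beyond its start (red) and beyond its end (blue); the vertical lines are the medians of the nearest-zone distance in genes of at least 500 kb (1172 kb) and in all protein-coding genes (160.0 kb). CTNNA3 and IMMP2L are the only members with a zone within 1 Mb, both beyond the start, and for all 9 the zone on at least one side is more than 1 Mb away.

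The zone-free intervals around the genes ranged widely. FHIT and PTPRG lay in the same interval, chr3:58540204-98536664, of 40.0 Mb, which spans the centromere and was the longest among the 14241 protein-coding genes for which such an interval could be measured. It held 168 MTBP peaks or 4.20 per Mb. Both genes had as their nearest zone chr3:58516847-58540203, with a score of 256, higher than 24.1% of zones. LRP1B lay in an interval of 21.1 Mb with 5.32 MTBP peaks per Mb, and CTNNA3 in one of 20.7 Mb with 5.71 per Mb, but near its edge. Its nearest zone, chr10:68076275-68162103, was 85.8 kb wide and scored 1021, above 67.0% of zones, the highest of these neighbours.

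The other intervals were shorter. They measured 6.61 Mb around AUTS2, 6.54 Mb around LSAMP, 5.95 Mb around WWOX, 4.53 Mb around MACROD2 and 4.35 Mb around IMMP2L, against a median of 7713 kb over the 271 long genes and 2989 kb over the 14241 protein-coding genes that had such an interval. WWOX had the densest interval, with 67 MTBP peaks or 11.3 per Mb. AUTS2 had the sparsest, with 7 MTBP peaks or 1.06 per Mb, and lay close to its middle, 2685 kb from the zone on one side and 2727 kb from that on the other. WWOX and PTPRG therefore combined MTBP densities above those of most long genes with nearest zones at 2046 and 3021 kb.

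A list of 20 other genes of published fragile sites, all at least 500 kb long, was set beside the members. An MTBP peak lay in the spans of all 9 members and of 16 of these 20, and an initiation zone in 0 of the 9 and in 1 of the 20, PDE4D, a cAMP phosphodiesterase. The median density was 3.89 MTBP peaks per Mb in the members and 2.27 in the 20 genes, but the pooled densities were close, at 4.0 and 3.79. The median distance to the nearest zone was 2046 kb in the members and 1268 kb in the 20 genes. More than 1 Mb separated 7 of the 9 and 11 of the 20 from a zone, and more than 500 kb 8 of the 9 and 17 of the 20. The densest was RORA, a nuclear receptor, with 32.0 MTBP peaks per Mb. ESRRG, DPYD, DCC and SDK1 had 0 MTBP peaks and 3, 2, 0 and 1 H3K4me2 peaks.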

How the data were processed

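Only processed lists were used. Per the submitters' processing notes, reads were handled with Trim Galore, Bowtie2, MACS2 and HOMER on hg38; versions, parameters, and whether replicates were pooled before calling were not stated in the sources used here. The deposited MTBP list gives the authors' score per peak, a signal for each line (scaling unstated), a signed distance to the nearest start site, an annotation and a class. The deposited H3K4me2 list gives the authors' score and fold enrichment per peak, and the deposited zone list an average score. These values only describe or rank features within a list. The IgG, untagged and G1 libraries have no values in these lists and were not analysed here.

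Peaks were assigned to a gene on overlap of at least 1 bp with its RefSeq span plus 20 kb on each side, and peak centres gave the place along the gene. RefSeq's promoter table gave strand, except for LRP1B, whose minus strand was entered by hand. deltaC was set over WT as log2((deltaC + 1)/(WT + 1)). Distances to zones ran from the gene's own ends. Overlap and distance routines were checked on simulated intervals. Chromosome Y was left out. No p-value was computed, because no list holds values per library.

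All 9 members are described, with their highest-scoring MTBP peak, the peak at the start, every MTBP peak where there were 5 or fewer, the nearest zone and the protein-coding genes within them; the 20 other fragile site genes are summarised, with the highest and lowest MTBP densities named, except 1 that is not reported here. The members, lists and comparisons were chosen with earlier results of these data known. Software was Python 3.11.15 with pandas 2.3.3, numpy 2.4.6, scipy 1.17.1 and matplotlib 3.10.9.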

Additional observations from a re-analysis of the deposited data

How the results depend on the processing

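Of the changes of a setting other than leaving out a gene, 21 left the value within its interval or count and 3 did not. Requiring the list's median score or more took the pooled density in the members to 1.79 MTBP peaks and 4.24 H3K4me2 peaks per Mb, as fewer peaks were counted. Replacing MTBP by H3K4me2, a choice made after seeing the data, took the median longest stretch without a peak to 277 kb. No flank, a flank of 100 kb, the peak centre as the criterion and the gene interior alone kept MTBP density between 3.50 and 4.0 per Mb. The number of members with a zone was 0 with no flank, with 100 kb and with wider zones only. These settings could give no other count, since the nearest zone to any member was 313 kb away, yet they are counted among the 21. Zones of at least the median score put the median distance at 2622 kb. A pseudocount of 10, also chosen after seeing the data, put the median log2 ratio of the 3 AUTS2 peaks at -5.49 in place of -8.78, so its size has no fixed value. Its sign could not change, since adding the same number to both signals cannot reverse their order. The interval for this ratio was only the range of the 3 peaks. Leaving out 1 gene at a time moved the density between 3.24 (without WWOX) and 4.65 (without LRP1B) MTBP peaks per Mb and between 9.63 and 12.2 H3K4me2 peaks per Mb. The same moved the share of H3K4me2 peaks with MTBP between 32.7 and 37.1%, the median log2 ratio between -0.90 and -0.82, the share of MTBP peaks at the start between 16.7 and 20.5%, the median distance to a zone between 1626 and 2136 kb and the median longest stretch between 557 and 611 kb. No paired analysis was possible because the lists hold no values per library.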

Other observations

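The 3 MTBP peaks of AUTS2 formed one of 8 runs in the genome of at least 3 neighbouring MTBP peaks that were each at least 8-fold lower in deltaC. Of these 8 runs it was the longest, at 664 kb from its first peak to its last. Runs of at least 2 such peaks numbered 30, and 523 such peaks stood alone.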
